A study of Mus musculus with 7 samples.

Results

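G protein-coupled receptors sit in the plasma membrane and pass signals from lipids, proteins or transmitters to heterotrimeric G proteins inside the cell. In the oligodendrocyte lineage they are known to time the step from oligodendrocyte precursor cells (OPC) to myelinating cells, and several are used as stage markers. GPR17 marks premyelinating cells and has to decline before they mature, whereas GPR37, GPR62 and the sphingosine phosphate receptor encoded by S1pr5 are known from mature oligodendrocytes. The 10 receptor genes described here, Gpr37, Gpr37l1, Gpr17, Gpr62, Adgrg1, Adgrb3, Lpar1, S1pr1, S1pr5 and Chrm1, were taken by name from the 49315 genes of the count files. Each matched 1 gene identifier, and all 10 were among the 18352 genes with enough counts to be tested.

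RNA-seq was carried out on 7 cultures of primary mouse oligodendroglia from brain, 4 of genotype Klf13-wt (controls) and 3 of genotype Klf13-ko, all kept for 6 days in differentiating SATO medium after shake-off from mixed glia. The cells came from newborn mice of both sexes, and the deletion is constitutive, so that all cells of a knockout culture, other glia included, lacked the gene. It is not stated whether a culture pooled several pups. Between 24507471 and 59596479 reads per library were counted on genes. Klf13 itself fell to 880 ± 79.8 normalized counts in the knockout libraries (SD, n = 3) from 11338 ± 645 in the controls (SD, n = 4). Mbp, a defining gene of oligodendrocytes, had a mean level of 1214 CPM per kilobase of exon in the controls and of 353 in the knockouts. Normalized counts are counts scaled by edgeR's TMM factors to a common library size, so that they compare one gene between libraries, while counts scaled to the same library total (CPM) and divided by kilobases of exon compare genes with each other.

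Markers of other cell types were detected, at levels that differed between libraries. Of 10 astrocyte markers 8 were higher in the knockout, and their summed level was 2377 to 3257 CPM in the controls and 4585 to 5372 in the knockouts. Of 12 neuron markers, 11 of which were tested, 8 were higher, with sums of 499 to 722 and 637 to 935 CPM. None of 8 microglia markers passed the test of edgeR, by adjusted or unadjusted p, and control replicate 3 stood apart from the other controls with 2028 CPM against at most 497. Fibroblast and mural markers summed to 387 to 1577 CPM in the controls and 175 to 401 in the knockouts, and 1 of 8 was lower. Endothelial markers stayed at 9.15 to 25.7 CPM in sum, with 1 of 6 lower and Cldn5 at 3 counts or fewer in every library. Of 10 OPC markers 3 were higher and none was lower, and of 8 premyelinating markers 4 were lower and 1 higher, with sums of 6742 to 8030 and 5193 to 5652 CPM. All 10 mature oligodendrocyte markers were lower, with sums of 24640 to 28320 and 6913 to 7965 CPM. In bulk RNA, fewer cells of a type and less RNA per cell cannot be told apart.

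Loss of Klf13 went with lower values for 4 of the 10 receptor genes and higher values for 2 with an adjusted p up to 0.05 by edgeR's quasi-likelihood method. Among all genes tested, 12.2% were lower and 11.6% higher by this measure. With a log2 fold change of at least 1 required as well, the same 4 genes, Gpr37, Gpr62, S1pr5 and Lpar1, remained lower, against 3.08% of all genes tested, and Chrm1 remained higher, against 3.97%. The median log2 fold change was -0.22 over the receptors and -0.0037 over all genes tested. Controls and knockouts formed separate ranges for 4 lower and 4 higher receptors, against 18% and 18.3% of all genes tested.

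**Figure D1:**
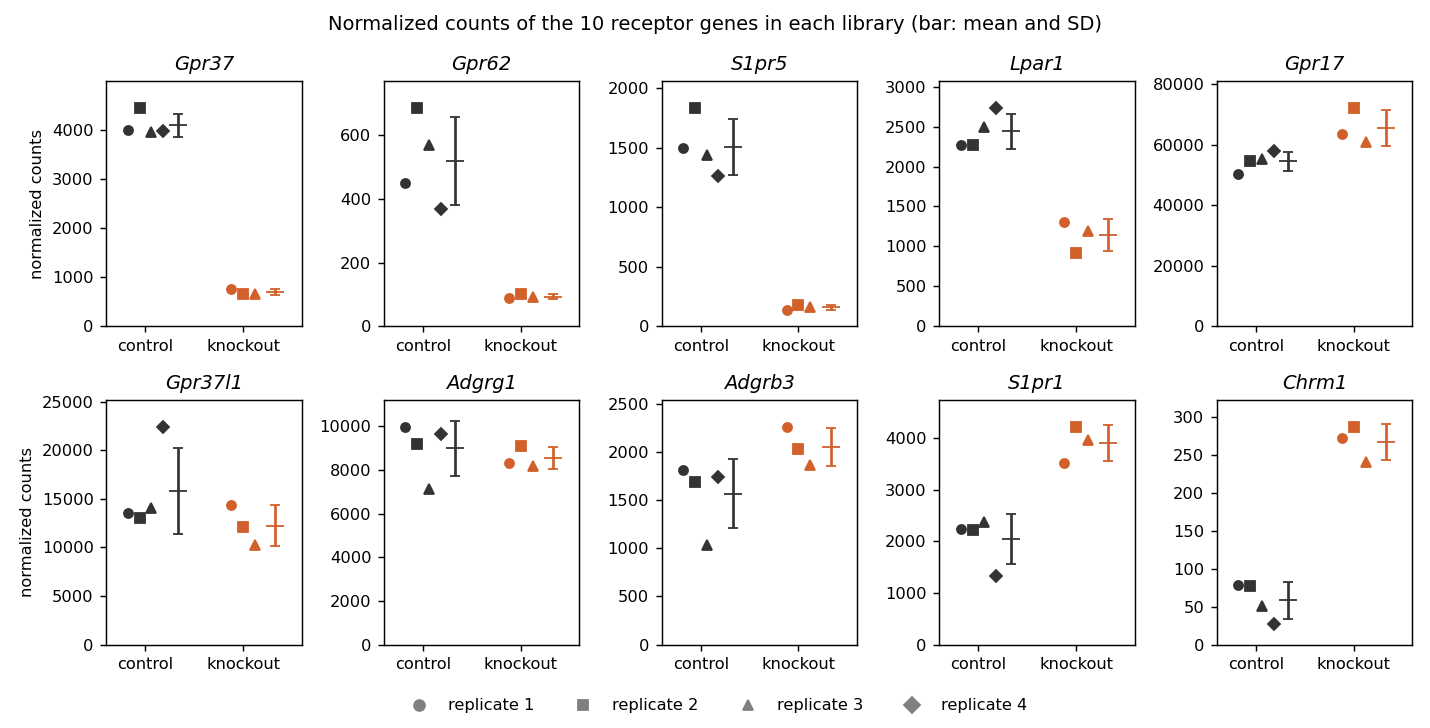
Normalized counts of the 10 receptor genes (vertical axes from 0, different for each gene) in the 4 control libraries (dark) and the 3 knockout libraries (orange), with the mean and SD at the right of each group and marker shapes for the replicate number. Gpr37, Gpr62, S1pr5 and Lpar1 lie lower and S1pr1 and Chrm1 higher in all 3 knockout libraries, while the groups overlap for Gpr37l1 and Adgrg1.

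S1pr5, the receptor for sphingosine phosphate (S1P) that is enriched in mature oligodendrocytes, fell furthest. It had 1495, 1833, 1440 and 1261 normalized counts in control replicates 1 to 4 and 137, 179 and 162 in knockout replicates 1 to 3. Each knockout library thus held less S1pr5 than any control library, by a wide margin compared with the spread inside the groups. Only 10.6% of the mean control level was left, a log2 fold change of -3.23 (95% confidence interval from -3.61 to -2.85, adjusted p = 4.21e-05 in edgeR's quasi-likelihood test). S1pr5 lies on chromosome 9 of GRCm38 from 21242912 to 21248443 and shares 51 exon bases with the antisense gene Gm48303, which had only 12.1 ± 3.47 and 2.58 ± 1.73 normalized counts.

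Gpr37, an orphan receptor known to restrain the timing of late oligodendrocyte differentiation, had 3995, 4433, 3948 and 3975 normalized counts in the controls. In the knockouts it had 760, 661 and 651. Both groups were tight, and control replicate 2 was the highest library. The log2 fold change was -2.57 (95% confidence interval from -2.76 to -2.38, adjusted p = 1.83e-05 in edgeR's quasi-likelihood test). The gene is found on chromosome 6 from 25665878 to 25690729, and no other annotated gene overlaps it.

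Gpr62, a receptor of mature oligodendrocytes without a known ligand, had lower counts and a wider spread. Its 4 control libraries held 451, 686, 569 and 368 normalized counts, and its 3 knockout libraries 88.5, 100 and 89.9. The lowest control library was still far above the highest knockout library. The mean level was 17.9% of that in controls, and the log2 fold change was -2.48 (95% confidence interval from -3.02 to -1.93, adjusted p = 0.000644 in edgeR's quasi-likelihood test). Gpr62 on chromosome 9, from 106463962 to 106465938, shares 51 exon bases with Pcbp4 on the opposite strand. Pcbp4 had 8712 ± 1106 and 7278 ± 1334 normalized counts (adjusted p = 0.241 in the same edgeR test), and the strand setting of the counting is not stated.

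Lpar1, a receptor for lysophosphatidic acid (LPA) on differentiating oligodendrocytes, was the fourth gene that fell. Control libraries held 2272, 2268, 2501 and 2731 normalized counts, knockout libraries 1309, 918 and 1190. The groups stayed apart, but the step was smaller than for the other 3 lower receptors. The mean level dropped to 46.6% of that in controls (log2 fold change -1.10, 95% confidence interval from -1.41 to -0.80, adjusted p = 0.00189 in edgeR's quasi-likelihood test). Lpar1 spans 58435255 to 58553898 on chromosome 4. For all 4 lower genes, mature oligodendrocyte markers moved in the same direction, as given above. Of 8 fibroblast and mural markers 1 was lower, the median of their log2 fold changes was -1.75, and their sums overlapped between the groups. The part of these lists in the results for the 4 genes was not tested.

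**Figure D2:**
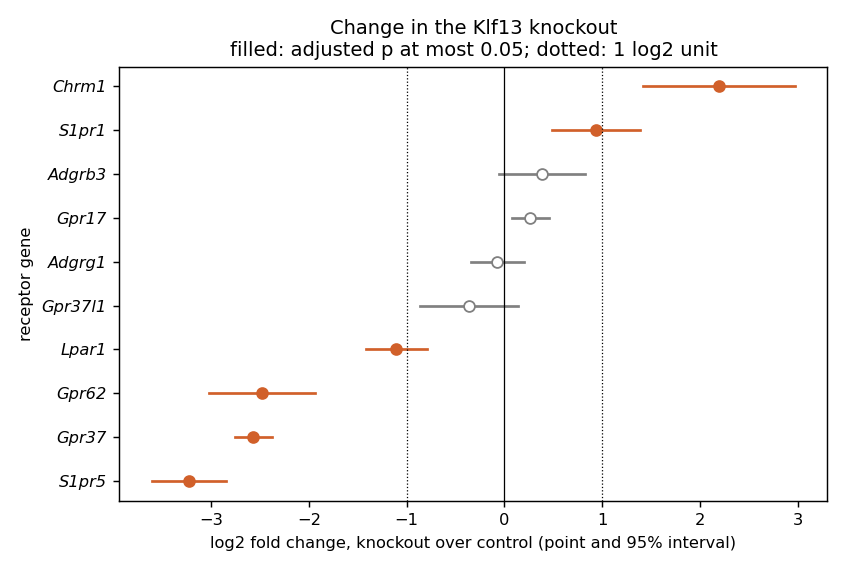
Log2 fold changes of the 10 receptor genes, knockout over control, with 95% confidence intervals from edgeR's quasi-likelihood fit; filled orange points have an adjusted p of at most 0.05, and dotted lines mark 1 log2 unit. S1pr5, Gpr37, Gpr62 and Lpar1 lie between -3.23 and -1.10, and S1pr1 and Chrm1 lie at 0.94 and 2.19.

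KLF13 binds GC-rich elements, so the upstream sequences of S1pr5 and Gpr62, which fell, are shown beside that of Gpr37l1, which did not pass the test. They are the 250 bases before the RefSeq transcription start in GRCm38.p6, written in the direction of the gene. Capitals mark matches on either strand to the Klf element as the study defines it, with overlapping matches counted separately. The words searched were ACGCCC and its variant ACACCC, besides these ACTCCC and also CCGCCC, and lastly CCACCC together with CCTCCC.
S1pr5, chr9:21248444-21248693, minus strand: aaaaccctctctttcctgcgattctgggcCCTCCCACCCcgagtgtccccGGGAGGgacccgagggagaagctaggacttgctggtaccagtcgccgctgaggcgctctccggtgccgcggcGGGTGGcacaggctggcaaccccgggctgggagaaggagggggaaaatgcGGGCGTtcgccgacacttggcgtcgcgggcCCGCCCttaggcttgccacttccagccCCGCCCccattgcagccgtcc
Gpr62, chr9:106465986-106466235, minus strand: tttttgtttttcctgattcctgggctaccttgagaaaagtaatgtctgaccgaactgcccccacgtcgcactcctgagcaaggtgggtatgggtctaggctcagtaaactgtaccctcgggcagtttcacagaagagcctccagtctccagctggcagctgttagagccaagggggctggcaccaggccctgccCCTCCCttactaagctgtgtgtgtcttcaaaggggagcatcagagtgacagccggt
Gpr37l1, chr1:135167682-135167931, minus strand: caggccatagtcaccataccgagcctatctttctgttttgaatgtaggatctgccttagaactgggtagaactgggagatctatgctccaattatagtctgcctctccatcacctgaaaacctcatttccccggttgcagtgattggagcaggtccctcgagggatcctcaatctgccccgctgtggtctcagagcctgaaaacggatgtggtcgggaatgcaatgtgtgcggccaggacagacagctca
The S1pr5 window held 7 matches, that of Gpr62 1 and that of Gpr37l1 0. The window of Gpr37 held 3 and is not shown, since its RefSeq start lies inside the longer gene of the annotation used for positions. Of all 32851 windows of this length in the table, 72.6% held at least 1 match, with a median of 1. The windows at the 3 RefSeq starts of Lpar1 held 4, 6 and 0 matches, those at the 2 starts of Adgrg1 3 and 2, and that of Adgrb3 3. The G and C content of the printed windows was 69.2%, 55.2% and 52% in the order shown. These matches describe letters in a window, and no binding was measured at these genes.

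Chrm1, a muscarinic acetylcholine receptor whose blockade is known to favour oligodendrocyte differentiation, was the receptor with the largest relative increase. It had 78.3, 77.4, 51.4 and 27.1 normalized counts in Klf13-wt cultures and 273, 287 and 241 in Klf13-ko cultures. The lowest knockout library held more than any control, although Chrm1 had the lowest level per kilobase of exon of the 10 genes in both groups. The log2 fold change was 2.19 (95% confidence interval from 1.41 to 2.98, adjusted p = 0.00484 in edgeR's quasi-likelihood test). Chrm1 lies on chromosome 19 from 8663789 to 8683587. It is also a gene of forebrain neurons, and 8 of the 11 tested neuron markers were higher in the knockout libraries, while the summed levels of the list overlapped between the groups. Among these markers, Rbfox3 and Snap25 had log2 fold changes of 1.95 and 2.12. Tubb3, which had the highest level per length of the list in the knockouts, was at 0.72 (adjusted p = 0.0163 with edgeR). Elavl3, which had the highest in the controls, was at -0.46 and Nefl at -0.45, and neither passed the test (adjusted p = 0.0977 and 0.294 with edgeR). The part of neuron markers in the result for Chrm1 was not tested.

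S1pr1, the broadly expressed S1P receptor of precursor cells, astrocytes and endothelium, was the other gene that rose. It had 2248, 2217, 2380 and 1324 normalized counts in Klf13-wt cultures and 3531, 4226 and 3970 in Klf13-ko cultures. Control replicate 4 lay below the other controls, and every knockout library lay above all of them. The mean rose 1.91-fold (log2 fold change 0.94, 95% confidence interval from 0.49 to 1.39, adjusted p = 0.0140 in edgeR's quasi-likelihood test). Without knockout replicate 2 the log2 fold change was 0.88 and the adjusted p 0.0568 in the same test of edgeR. S1pr1 is located on chromosome 3 from 115710433 to 115715072. Of 10 astrocyte markers 8 rose in the same libraries, with log2 fold changes from 0.48 for Aldoc to 1.44 for Gja1 and 0.66 for Gfap, the most abundant of them per length. Gjb6 at 0.98 and Fgfr3 at -0.22 did not pass the test. Control replicate 4 also had the lowest sum of astrocyte markers, 2377 CPM against 3001 to 3257 in the other controls. The part of astrocyte markers in the result for S1pr1 was not tested. Of the 6 endothelial markers 4 were tested, and Cdh5 was lower, with means of 188 normalized counts in controls and 27.5 in knockouts. Flt1 had 373 and 213, Kdr 149 and 183 and Pecam1 40.8 and 36.1, and none of these 3 passed the test. Their part in the result for S1pr1 was not tested either. Among OPC markers 3 of 10 were higher, Ptprz1, Vcan and Cacng4, with log2 fold changes of 0.33, 0.50 and 0.44. None was lower, 5 of the 10 had a positive log2 fold change, and their sums overlapped between the groups. The part of OPC markers in the result for S1pr1 was likewise not tested.

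The other 4 receptors did not pass an adjusted p of 0.05. Gpr17, the most abundant of all, had 50340, 54773, 55376 and 57960 normalized counts in Klf13-wt cultures and 63658, 72123 and 60958 in Klf13-ko cultures. All knockout libraries lay above all controls, by a small step. Its log2 fold change of 0.26 had a 95% confidence interval from 0.07 to 0.45 (adjusted p = 0.0532, unadjusted p = 0.0130 in edgeR's quasi-likelihood test). The call depended on the setting, with an adjusted p of 0.0299 to 0.172 over the alternatives in edgeR, DESeq2 and limma. Gpr17 lies on chromosome 18 from 31942997 to 31949636. It shares 188 exon bases with Lims2 on the opposite strand, which had 2258 ± 425 and 2374 ± 153 normalized counts. Premyelinating markers mostly moved the other way, with 4 of 8 lower and 1 higher. Their sums were 6742 to 8030 CPM in the controls and 5193 to 5652 in the knockouts. The part of these markers in the result for Gpr17 was not tested.

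Gpr37l1, which is known from astrocytes and precursor cells, had 13529, 13085, 14115 and 22438 normalized counts in Klf13-wt cultures and 14418, 12098 and 10267 in Klf13-ko cultures. Control replicate 4 stood far above the other 6 libraries, and the groups overlapped. Its log2 fold change of -0.37 had a wide 95% confidence interval from -0.87 to 0.14 (adjusted p = 0.268 in edgeR's quasi-likelihood test). Without control replicate 4 the value was -0.13. The gene lies on chromosome 1 from 135160234 to 135167681. It did not pass the test, while 8 of 10 astrocyte markers were higher.

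The remaining pair belongs to the adhesion class, receptors with long extracellular parts that bind matrix or secreted proteins. Adgrg1, which keeps precursor cells dividing, had 9974, 9206, 7145 and 9632 normalized counts in Klf13-wt cultures and 8334, 9104 and 8191 in Klf13-ko cultures. The knockout libraries fell inside the range of the controls, and the 95% confidence interval of the log2 fold change ran from -0.34 to 0.20. Adgrb3, a receptor for C1q-like proteins known from synapses, had 1808, 1687, 1034 and 1736 normalized counts in Klf13-wt cultures and 2260, 2024 and 1866 in Klf13-ko cultures. The knockout libraries were all higher, the lowest of them by a small margin, and control replicate 3 was low. The log2 fold change was 0.39 (95% confidence interval from -0.05 to 0.83, adjusted p = 0.184 in edgeR's quasi-likelihood test). Without control replicate 3 it was 0.23. Adgrg1 lies on chromosome 8 from 94974751 to 95014217 and Adgrb3 on chromosome 1 from 25067476 to 25829707.

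Levels per length set the receptors in an order. In the controls, Gpr17 came first with 239 ± 13.9 CPM per kilobase (SD, n = 4), followed by Gpr37l1 with 158 ± 44.6, and the ranges of these 2 genes overlapped through the high control replicate 4 of Gpr37l1. Adgrg1 followed with 37.7 ± 5.33, apart from its neighbours. Gpr37, S1pr1, S1pr5 and Lpar1 lay close together at 15.3 ± 0.87, 15.3 ± 3.62, 13.7 ± 2.18 and 13 ± 1.17 CPM per kilobase, with ranges that overlapped from each to the next. Gpr62, Adgrb3 and Chrm1 closed the order with 5.97 ± 1.6, 1.92 ± 0.44 and 0.21 ± 0.09. Gpr17 exceeded 99.5% of all genes tested in this level, and Chrm1 12.3%.

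In the knockouts the first 3 places were unchanged, with 287 ± 25.5, 123 ± 20.9 and 35.9 ± 2.06 CPM per kilobase (SD, n = 3) for Gpr17, Gpr37l1 and Adgrg1. The group of 4 genes with similar control levels came apart. S1pr1 was at 29.2 ± 2.62, Lpar1 at 6.04 ± 1.06, Gpr37 at 2.59 ± 0.23 and S1pr5 at 1.45 ± 0.19 CPM per kilobase. Adgrb3, with 2.51 ± 0.24, stood between Gpr37 and S1pr5, and its range overlapped with that of Gpr37. Gpr62 and Chrm1 were last with 1.07 ± 0.07 and 0.94 ± 0.08.

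**Figure D3:**
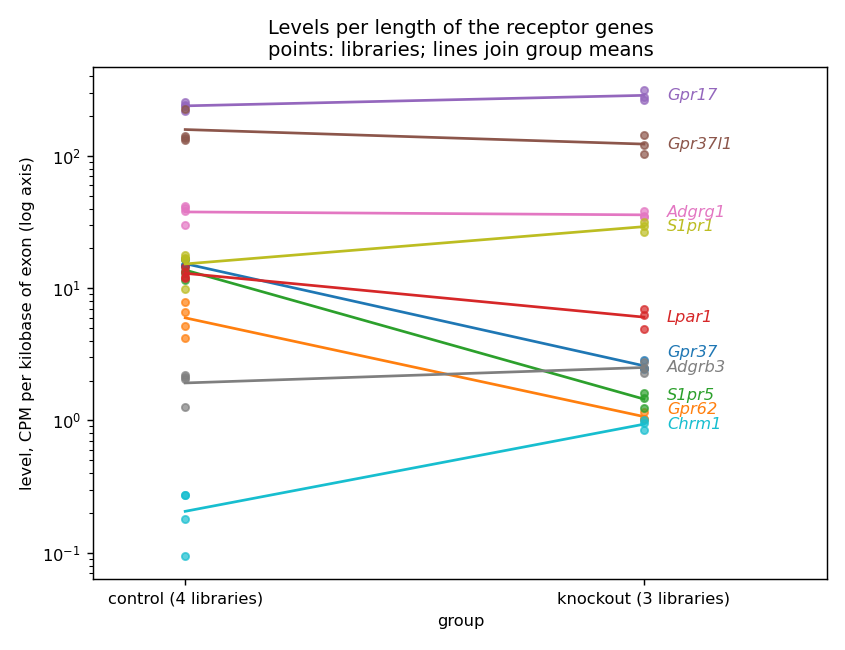
Level per length (CPM per kilobase of exon, log axis) of the 10 receptor genes in the control and knockout libraries, with 1 point per library and lines between the group means. Gpr37, S1pr1, S1pr5 and Lpar1 start together near 13 to 15.3 and end between 1.45 and 29.2.

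To ask whether receptors differed from each other in their response, the log2 ratio of 2 genes inside each library, each taken as CPM plus a pseudocount of 0.5, was compared between the groups. The pseudocount draws ratios of low genes towards 0. For 4 pairs, an exact two-sided permutation test of the group labels was used, which cannot give a p below 0.0286. The log2 ratio of S1pr5 to S1pr1 was -0.58, -0.27, -0.72 and -0.07 in Klf13-wt and -4.48, -4.40 and -4.44 in Klf13-ko cultures. The 2 S1P receptors thus had similar CPM in the controls, and S1pr1 was far above S1pr5 in every knockout library, with a difference of -4.03 between the group means, or -4.17 with a pseudocount of 0.1. For Gpr37 over Gpr37l1 the controls ran from -2.49 to -1.56 and the knockouts from -4.21 to -3.93, a difference of -2.19. For Gpr62 over Gpr17, a receptor of mature against one of premyelinating cells, the difference was -2.46. The controls ran from -7.22 to -6.28 and the knockouts from -9.20 to -9.09. Gpr17 itself did not pass the test, and of 8 premyelinating markers 4 were lower and 1 higher. For Adgrg1 over Adgrb3 the difference was -0.48, from 2.43 to 2.76 in the controls and from 1.87 to 2.16 in the knockouts. The exact permutation p was 0.0286 for each of the 4 pairs, and also 0.0286 after adjustment over them. The groups did not overlap in any pair. For S1pr5 over S1pr1 and Gpr62 over Gpr17 this outcome was fixed beforehand, since each gene alone already separated the groups, in opposite directions. The test of these pairs thus adds nothing to the results of the single genes. The permutation also ignored the replicate number.

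The make-up of the S1P receptor family changed while its sum did not move apart. Over the 5 genes S1pr1 to S1pr5, the summed level was 28.8 to 39.5 CPM per kilobase in the controls and 34.4 to 39.2 in the knockouts. S1pr5 made up 38.3%, 43.8%, 33.2% and 39.9% of this sum in Klf13-wt and 3.63%, 4.22% and 3.77% in Klf13-ko cultures. S1pr1 made up 42.5% ± 5.66 (SD, n = 4) and 78.0% ± 3.32 (SD, n = 3). S1pr3 and S1pr2 had shares of 10.8% and 7.59% in Klf13-wt and 12.3% and 5.57% in Klf13-ko cultures, and neither gene passed the test.

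In the LPA receptor family the sum itself was lower, with 15.1 to 18.7 CPM per kilobase in the controls and 7.45 to 10.5 in the knockouts. Lpar1 held 78.6% ± 5.41 of it in the controls (SD, n = 4) and 64.9% ± 4.25 in the knockouts (SD, n = 3). Lpar4, a more distant LPA receptor, rose from 75.6 ± 15.4 to 161 ± 19.8 normalized counts (log2 fold change 1.10, adjusted p = 0.00867 in edgeR's quasi-likelihood fit), and its share went from 2.49% to 9.41%. Lpar3 fell from 28.1 ± 1.30 to 13.8 ± 1.20 normalized counts (adjusted p = 0.0141 in the same test of edgeR). Lpar3 did not pass with the replicate number as a block.

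Muscarinic receptor transcripts were scarce in both groups. Their sum was 1.32 to 2.10 CPM per kilobase in the controls and 4.02 to 5.86 in the knockouts. Chrm4, which couples to inhibitory G proteins, made up 80.3% of the sum in the controls and 73.9% in the knockouts, and Chrm1 11.5% and 20.3%. Chrm4 rose from 87.3 ± 16.9 to 221 ± 57.5 normalized counts (log2 fold change 1.35, adjusted p = 0.00645 in edgeR's quasi-likelihood test). The neuron markers given beside Chrm1 moved in the same libraries, 8 of 11 tested being higher, and their part in the result for Chrm4 was not tested.

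**Figure D4:**
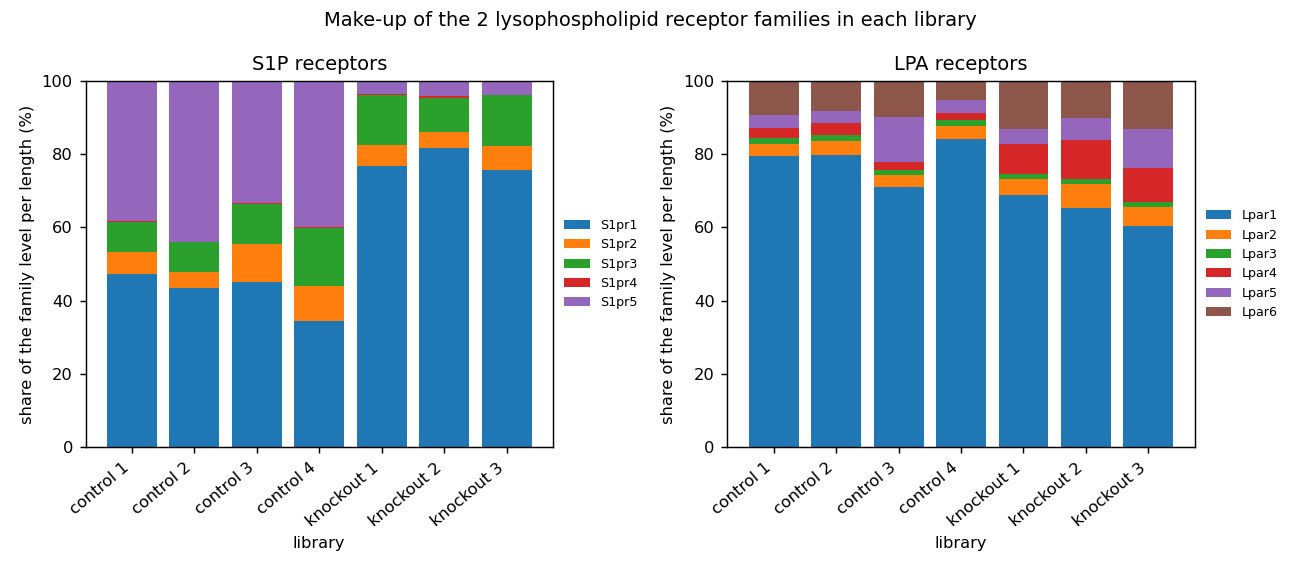
Share of each gene in the summed level per length of the S1P receptors (left) and the LPA receptors (right), as stacked bars from 0 to 100% for each of the 7 libraries. S1pr5 takes 33.2% to 43.8% in the controls and 3.63% to 4.22% in the knockouts, and Lpar1 takes 60.4% to 84.1% across all libraries.

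Receptors related to the 10 genes were read next. Of 26 such genes 21 were tested, 5 were higher and 1 was lower by edgeR's quasi-likelihood test, with adjusted p up to 0.05, against 11.6% and 12.2% of all genes tested. Their median log2 fold change was 0.09. The lower gene was Lpar3, which no longer passed with the replicate number as a block, where 6 were higher. Gpr61, an orphan receptor related to Gpr62, rose from 41.2 ± 11.6 to 118 ± 18.5 normalized counts, a log2 fold change of 1.52 (adjusted p = 0.00640 in edgeR's quasi-likelihood test). Gpr62 itself fell. Ednrb, an endothelin receptor of astrocytes and precursor cells and a relative of Gpr37, was the most abundant of them with 201 and 210 CPM per kilobase and did not pass the test. Adgrb1, a relative of Adgrb3, was next with 21.4 and 29.5 (adjusted p = 0.133 in the same test of edgeR).

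Among 28 genes for ligands of these receptors and the enzymes that make or remove them, 24 were tested, 5 were lower and 3 higher, against 12.2% and 11.6% of all genes tested, with a median log2 fold change of -0.20. Enpp2, which encodes autotaxin, the enzyme that makes LPA outside the cell, had 31483, 31316, 26545 and 36604 normalized counts in Klf13-wt cultures and 21734, 19359 and 18116 in Klf13-ko cultures. It was lower in every knockout library (log2 fold change -0.67, adjusted p = 0.00754 in edgeR's quasi-likelihood test), in the same direction as Lpar1. Plpp2, a lipid phosphatase that can remove LPA and S1P, fell from 510 ± 44.6 to 344 ± 36.8, and Lama2, a laminin chain, from 408 ± 32.8 to 274 ± 27.8 normalized counts. The S1P exporter gene Spns2 and the S1P phosphatase gene Sgpp1 were the other lower genes, with log2 fold changes of -0.25 and -0.44. The 3 higher genes, Slc5a7, Sgpp2 and Lama1, were rare, with means of 8.92, 8.68 and 41.3 normalized counts in Klf13-wt cultures and 23.6, 19.4 and 85.0 in Klf13-ko cultures. With the replicate number as a block none of them passed. Psap, which encodes prosaposin, a proposed ligand of GPR37 and GPR37L1, was the most abundant gene of the list at 540 and 483 CPM per kilobase and did not pass (adjusted p = 0.513 in edgeR's quasi-likelihood test).

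Downstream of the receptors, 42 of 45 genes for G protein subunits and effectors were tested, and 7 were lower and 15 higher, against 12.2% and 11.6% of all genes tested. The median log2 fold change was 0.09. Rapgef4 and Rapgef3 encode exchange factors that respond to cAMP. Rapgef4 rose from 207 ± 66.2 to 596 ± 80.3 normalized counts (log2 fold change 1.52, adjusted p = 0.00601 in edgeR's quasi-likelihood fit), and Rapgef3 had a log2 fold change of 0.67. Adcy2, an adenylyl cyclase, rose from 260 ± 73.5 to 642 ± 56.1, and Gng4, a G protein gamma subunit, from 2336 ± 590 to 5164 ± 871. In the other direction, Gng8 fell from 57.8 ± 8.48 to 19.5 ± 1.66, Gnb4 from 9503 ± 957 to 4833 ± 543 and Gng12 from 38495 ± 1056 to 25009 ± 1559 normalized counts. Gng12 and Gnb1 had the highest levels per length of the list in the controls, and Gnb1 did not pass the test. In the knockouts Gnb1 was first with 167 CPM per kilobase, and Gnai2 with 122 stood beside Gng12 with 120. Without knockout replicate 2, 6 genes of this list were higher, and the number over all genes tested, in both directions, was 2167 against 4368 with all libraries. In the same libraries 8 of 11 tested neuron markers and 8 of 10 astrocyte markers were higher, and their part in the values of this list and of the other lists was not tested.

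Of 27 genes that end or limit receptor signals, 26 were tested, 2 were lower and 7 higher, against 12.2% and 11.6% of all genes tested, with a median log2 fold change of 0.10. Rgs3 fell from 2070 ± 356 to 743 ± 128 normalized counts, a log2 fold change of -1.47 (adjusted p = 0.00157 in edgeR's quasi-likelihood fit), and Rgs16 from 1058 ± 219 to 608 ± 67.1. RGS proteins speed up the return of G proteins to the inactive state. Rgs8 rose from 384 ± 179 to 894 ± 187, Grk3, a receptor kinase, from 186 ± 53.0 to 426 ± 72.8, and Gprasp2, a receptor sorting protein, from 464 ± 48.5 to 953 ± 126. The genes with the highest level per length, the receptor kinase genes Grk2 and Grk6, did not pass the test. Without knockout replicate 2, 1 gene of this list was lower and 2 were higher, and 4 were higher without knockout replicate 1, where the numbers over all genes tested were also lower, at 2167 and 2463 against 4368.

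**Figure D5:**
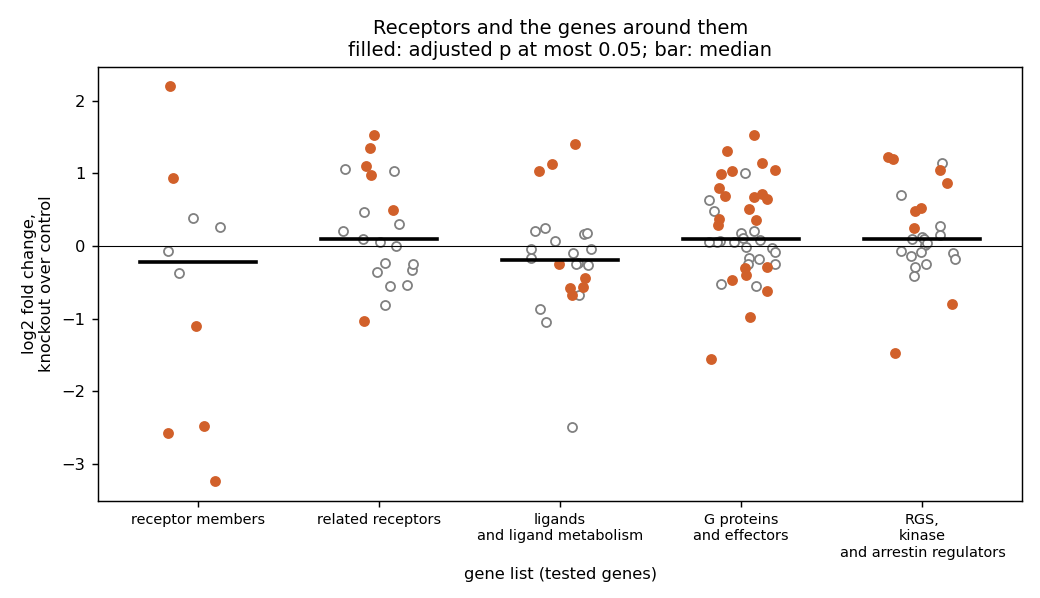
Log2 fold changes, knockout over control, of the tested genes of the receptor group and of the 4 lists around it, 1 point per gene; filled points passed edgeR's quasi-likelihood test with adjusted p up to 0.05 and bars are medians. The receptors run from -3.23 to 2.19, and the medians of the other lists lie between -0.20 and 0.10.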

How the data were processed

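Data were 7 RNA-seq libraries of primary mouse oligodendroglia, 4 controls and 3 Klf13 knockouts, grouped by their labels. The authors trimmed reads with Trimmomatic 0.36, mapped them with STAR 2.5.2b to a mouse genome of ENSEMBL (GRCm38) and deposited unique counts within exons per gene from Subread 1.5.2, without normalization. Annotation release and strand setting are not given in the sources used here. Gene symbols came from a table that held 48970 of the 49315 identifiers.

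In R 4.3.3, genes were filtered with filterByExpr, scaled with TMM and compared by edgeR 4.0.16 (quasi-likelihood, robust, group as only term), with Benjamini-Hochberg adjustment over 18352 genes. Standard errors and intervals were derived from the F statistic. The scripts were tested on simulated data. Libraries held 24507471 to 59596479 counts, and a count of 0 would allow up to 3 counts. Replicates are labelled biological, and what libraries of one number share is not stated. Deviations from the group means correlated at 0.113, 0.463 and 0.168 in the 3 same-numbered pairs and at -0.529 to 0.197 in the 9 differently numbered ones, of which 3 exceeded 0.113, across genes, which are not independent, so the number was also fitted as a block.

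Named were all receptors and, from each surrounding list, up to 3 genes with the lowest and 3 with the highest log2 fold change among those passing the test and the 2 with the highest level per length. Other list genes and markers were named after their values were seen. Marker lists had the same rule for level. The receptors and lists were chosen with earlier results of these data known. Alternatives were DESeq2 1.42.0, limma 3.58.1 (voom), other scaling and filters, the block, the ribosomal RNA share, offsets for GC content (longest transcript) and leaving out libraries. Block with GC offsets was added after seeing the data. Upstream sequences are from RefSeq, GRCm38.p6, and the table of them used here matched 7 of the 10 receptor genes. One marker gene that the rule on level would name is not reported here.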

Additional observations from a re-analysis of the deposited data

Results flagged for a closer look

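In 9 of 42 control groups examined (the receptors, the named pathway genes, Klf13 and the 4 ratios), 1 of the 4 control libraries lay farther from the rest than Dixon's criterion at 95% allows, and chance flags about 1 in 20 such groups. Among the receptors, Gpr37 had 4433 normalized counts in control replicate 2, against 3995 in the next control. Control replicate 4 was high for Gpr37l1 at 22440, with 14120 in the next control, and low for S1pr1 at 1324, with 2217 in the next. Control replicate 3 was low for Adgrb3 at 1034, with 1687 in the next control, and accordingly high for the log2 ratio of Adgrg1 to Adgrb3 at 2.76. The same library was also apart for Ednrb at 27540, Sgpp2 at 6.86, Psap at 84330 and Grk2 at 5184 normalized counts. It is the library with the highest sum of microglia markers, 2028 CPM against 438 to 497 in the other controls. Its sums of fibroblast and mural markers, 1577 CPM, and of endothelial markers, 25.7 CPM, were also the highest of all libraries. The other controls had 387 to 1306 and 10.4 to 20.2 CPM. The part of these markers in the values above was not tested.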

How the results depend on the processing

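Under 17 alternatives, none of the 10 receptors changed its direction, and Gpr37, Gpr62, S1pr5, Lpar1 and Chrm1 kept an adjusted p of at most 0.05. Lpar1 had log2 fold changes of -1.21 to -0.97, and without knockout replicate 2 only 3 receptors were called lower. Gpr17 gained the call with at least 10 counts in every library (0.27, adjusted p = 0.0395, edgeR), in limma voom (0.26, 0.0436) and with the ribosomal RNA share as covariate (0.30, 0.0299), and its log2 fold change ran from 0.19 to 0.32 with each library left out, the call being gained without control replicate 4. Adgrb3 gained it with the replicate block and GC offsets together (0.46, adjusted p = 0.0205, edgeR). S1pr1 ran from 0.80 to 1.02 with each library left out and lost the call without knockout replicate 2. Its log2 fold change passed 1, so that 2 receptors were called higher, with the ribosomal RNA share as covariate and without control replicate 1 or 3 or knockout replicate 1, and this number ran from 1 to 2 with libraries left out. The number higher at the adjusted p ran from 1 to 3, lowest without knockout replicate 2.

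The replicate block changed no call of a receptor. Replicate number 4 exists only among the controls, so under the block that library carries no information on the difference between the groups. With the block, 0 related receptors were lower and 0 ligand genes higher, and so with the block and GC offsets together. Related receptors that were lower numbered 0 also without a filter and with at least 10 counts, where 1 ligand gene was higher. DESeq2 gave 8 lower ligand genes, and GC offsets gave 4 higher regulators. With libraries left out, related receptors numbered 0 to 1 lower and 3 to 5 higher, ligand genes 3 to 7 lower and 0 to 3 higher, higher G protein genes 6 to 17, and regulators 1 to 2 lower and 2 to 7 higher. The lowest numbers of higher G protein genes and of regulators came without knockout replicate 2, as did the lowest number over all genes tested (2167, against 4368 with all libraries). The cause was not tested. The 4 ratios stayed within 1 SD. For them the block and leaving out control replicate 4 gave the same differences. In 4 libraries, 2 of each group, over 10% of counts fell on ribosomal RNA-linked genes. Inside these and the other libraries the log2 differences were -3.20 and -3.18 for S1pr5, -2.50 and -2.66 for Gpr37, -2.19 and -2.64 for Gpr62, -0.997 and -1.37 for Lpar1, 1.12 and 0.879 for S1pr1 and 2.48 and 2.19 for Chrm1. Adgrg1 had -0.25 and 0.17. Each second value rests on 2 controls and only 1 knockout library, replicate 2.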

Other observations

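For each receptor, the genes with the most similar log2 CPM over the 7 libraries were looked up, as a description in which both genes share the libraries and their difference between groups. S1pr5 was most like Ermn, a gene of the myelin cytoskeleton (r = 0.999), and Gpr37 most like Bace1, a protease gene with a log2 fold change of -0.78 (r = 0.999). Gpr62 was most like Otud7b (r = 0.998, log2 fold change -1.51), and Lpar1 most like 9530053A07Rik and Fgf7, a growth factor gene, which had log2 fold changes of -2.16 and -2.03. S1pr1 was most like Dapk1 (r = 0.997, log2 fold change 0.93) and Chrm1 most like AI504432 and Cpne4, of which Cpne4 had a log2 fold change of 3.27. Gpr17 was most like Tubb3, a tubulin gene of neurons and young oligodendroglia (r = 0.985, log2 fold change 0.72).

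Further genes of the lists, chosen after their values were seen, are given as values. Ednra, the other endothelin receptor gene, had 135, 88.5, 173 and 112 normalized counts in Klf13-wt cultures and rose to 209, 266 and 273 in Klf13-ko cultures (adjusted p = 0.0226 in edgeR's quasi-likelihood test). Adgrg6, an adhesion receptor known from Schwann cell myelination, had 417 to 504 normalized counts in the controls and 551 to 750 in the knockouts (adjusted p = 0.0288 in edgeR's quasi-likelihood test). Id4, an inhibitor of differentiation reported downstream of GPR17, had 1122, 1842, 986 and 765 normalized counts in Klf13-wt cultures and 1778, 3589 and 1696 in Klf13-ko cultures, and did not pass (adjusted p = 0.0880 in the same edgeR test), and neither did Id2.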
